A study of Mus musculus with 15 samples.

Results

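The comparison described here is the interaction of dose and time in RAW264.7 cells treated with LCCL, that is, whether the difference between the 10 µg and the 1 µg dose changed between 6 h and 24 h. RAW264.7 is a mouse macrophage line transformed by Abelson leukaemia virus, and LCCL is the agent that the series title places in a peptide drug candidate directed at M1 macrophages. For each gene the value was the 10 µg against 1 µg difference at 24 h minus the same difference at 6 h, as a log2 fold change from a model of the read counts. A positive value means that the 10 µg cells gained on, or lost less than, the 1 µg cells between the times. The members were all 12401 of 25639 gene symbols that passed a filter on low counts. The value used 12 of the 15 libraries, 3 from each of 4 groups of wild-type cells that had either 1 µg or 10 µg of LCCL and were taken after 6 h or after 24 h. The other 3 libraries were from untreated cells. They entered the fit for its estimate of the spread and are given as a reference level. The labels give the doses in µg without a volume, name no vehicle, do not say when untreated cells were taken, and put all 15 libraries in batch 1. Time under LCCL and time in culture therefore cannot be told apart in a 24 h against 6 h change. Nothing in the labels says that the 3 libraries of a group came from separate cultures, so each p-value measures the spread between libraries, which may be technical.

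Macrophages answer agents such as microbial products with a wave of immediate early, NF-kB and cytokine genes, followed by an interferon-driven wave. Both fade as feedback inhibitors are made. Over a longer time activated macrophages often slow their cell cycle, change their lipid metabolism and remodel the lysosome, the acidic compartment in which cathepsins and other hydrolases digest what the cell has engulfed. RAW264.7 cells are also used as osteoclast precursors, since they can fuse and take on the bone-resorbing programme of which a lysosomal proton pump and cathepsin K are parts. An interaction value does not say which of the 4 groups moved, so levels by library are given for the genes on which the results turn.

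The libraries held 19085148 to 22434642 counts, and the genes tested held 99.97% of them. Between libraries of a group the biological coefficient of variation was 5.68%. No pair of libraries agreed within counting noise, with a chi-square per degree of freedom from 2.58 to 16.9 over the 15 pairs within groups. The 2 highest values, 14.9 and 16.9, were both for pairs that held replicate 1 of the 1 µg, 24 h group. Several results are therefore also given without that library. Interaction values of other genes moved without it too, such as Hspa1b (-1.62 in place of -2.10) and Dio2 (2.61 in place of 2.12). The macrophage markers were present in every library: Lyz2 ran from 7102 to 11050 CPM, the count scaled to the size of the library, Csf1r from 786 to 1560 CPM and Cd68 from 789 to 1227 CPM. Epcam, Krt8, Col1a1, Cd3e and Ly6g were at 0 in all 15 libraries. In the treated libraries the 10 epithelial markers summed to at most 0.208 CPM, the 10 fibroblast markers to at most 2.05 CPM and the 10 neutrophil markers to at most 1.35 CPM. The 10 T cell markers summed to 37.2 to 55.4 CPM, mostly Cd247, with 4 of the 10 at 0. The lists of B cell and dendritic cell markers moved with the groups. The 10 B cell markers, mostly Blnk, summed to 19.1 to 24.3 CPM at 6 h and to 36.5 to 42.1 CPM at 24 h, with the doses overlapping at each time. The 10 dendritic cell markers differed by time and by dose. At 6 h these summed to 15.7 to 18.5 CPM at 1 µg and to 21.8 to 22.7 CPM at 10 µg. At 24 h the sums were 26.0 to 27.6 CPM and 44.2 to 48.5 CPM. Most of that was Itgax, an integrin that macrophages also make. The part of either list in the results was not tested.

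The interaction was called for 2307 of the 12401 genes (18.6%) by edgeR's quasi-likelihood test at a Benjamini-Hochberg adjusted p under 0.05. It was positive for 940 genes (7.58%) and negative for 1367 (11.0%). Most values were moderate. The median size among called genes was 0.40 on the log2 scale, 68 positive and 89 negative genes passed a 2-fold difference, and the median over all genes tested was -0.02. The dose difference itself was called for 291 genes (2.35%) at 6 h and for 4383 (35.3%) at 24 h. The 291 became 111 to 163 without any 1 of the 6 libraries taken at 6 h, with the lowest count without replicate 2 of the 10 µg, 6 h group, and 592 without replicate 1 of the 1 µg, 24 h group. Among the 2307 genes it had passed at 24 h only for 2053 (89.0%), at 6 h only for 51, at both times in the same direction for 61, at both in opposite directions for 35 and at neither for 107. It was larger at 24 h than at 6 h for 2146 of them (93.0%). At 24 h the 10 µg and 1 µg libraries did not overlap for 2098 of the called genes (90.9%), against 41.2% of all genes tested. At 6 h they did not overlap for 944 (40.9%), against 24.1%. The genes were called on these same libraries, so a larger share among them is no separate support.

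**Figure D1:**
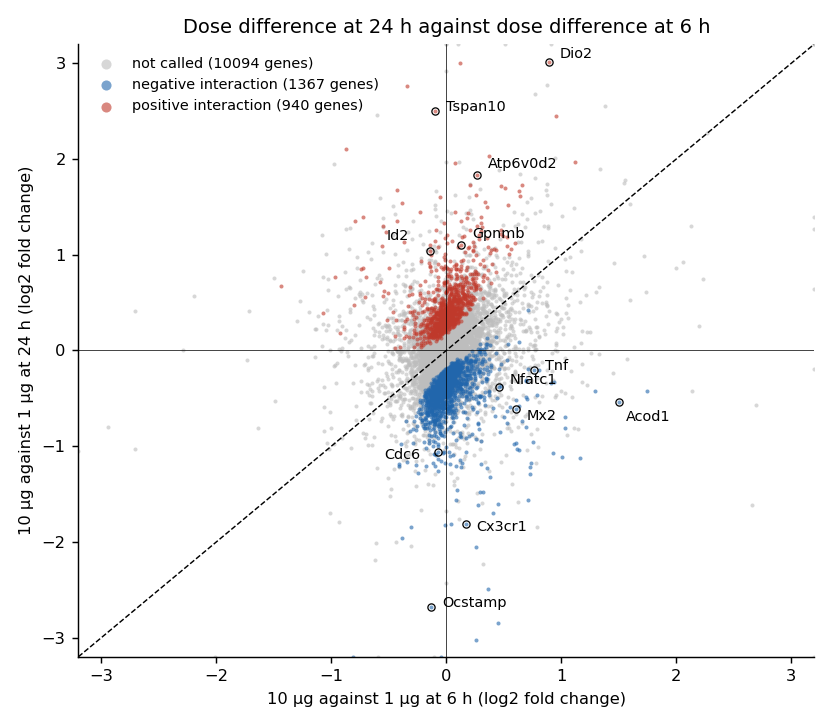
Each point is 1 of the 12401 genes, with the log2 difference between 10 µg and 1 µg at 6 h on the x axis and at 24 h on the y axis. Points past 3.2 on either axis are drawn at the edge. Genes with a positive interaction (red, 940) lie above the dashed line of equal differences, genes with a negative one (blue, 1367) below it, and both spread along the y axis more than along the x axis.

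The same value can be read along time. The change from 6 h to 24 h was called for 7533 genes (60.7%) at 1 µg, 30.3% of all genes upward and 30.5% downward, and for 8579 (69.2%) at 10 µg, 34.0% upward and 35.2% downward. For 1753 of the 2307 genes (76.0%) the change from 6 h to 24 h had the same sign at both doses and was larger at 10 µg. For 425 (18.4%) the changes had opposite signs, and for 129 the change was larger at 1 µg. The change with time was called at both doses, with the same sign and the larger size at 10 µg, for 1459 genes. It was called at 10 µg alone for 529 and at 1 µg alone for 163. On the linear CPM scale the difference of differences had the other sign for 2 of the 2307 genes, both of them negative on the log scale.

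Promoter stretches are shown for members of 3 gene lists with a large share of called genes, each with a motif known for such genes. Mitosis genes, with 40 of 51 called, were searched for the same motifs and are not shown. A shared factor was not tested. They are from RefSeq (GRCm38.p6), written 5′ to 3′ on the gene's own strand, hold only bases before the annotated start, and have the motif in capitals. The first motif, TCACGTGA, is the core of the element bound by TFEB and TFE3, which drive lysosomal genes. It is its own reverse complement and holds the wider E-box CACGTG. It is shown for 3 lysosomal genes that were called positive, Ctsd (the protease cathepsin D), Gla (alpha-galactosidase A, with 2 copies) and Atp6v1a (a subunit of the proton pump).

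Ctsd chr7:142387879-142387966 (minus strand): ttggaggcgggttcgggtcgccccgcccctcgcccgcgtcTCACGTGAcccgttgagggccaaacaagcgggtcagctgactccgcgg
Gla chrX:134601153-134601255 (minus strand): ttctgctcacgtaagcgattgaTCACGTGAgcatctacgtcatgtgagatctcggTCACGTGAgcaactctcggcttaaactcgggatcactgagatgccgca
Atp6v1a chr16:44139344-44139431 (minus strand): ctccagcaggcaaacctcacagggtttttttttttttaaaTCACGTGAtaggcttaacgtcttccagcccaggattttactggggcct

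The second motif, TTTCCCGC or TTTGGCGC, is a site of the E2F factors, which switch on genes of S phase. It is shown for Cdc6, which loads the replicative helicase, and for Mcm6 and Mcm7, which are subunits of that helicase. All 3 were called negative.

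Cdc6 chr11:98907973-98908060 (plus strand): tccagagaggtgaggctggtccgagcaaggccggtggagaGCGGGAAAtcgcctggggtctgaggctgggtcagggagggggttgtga
Mcm6 chr1:128359706-128359855 (minus strand): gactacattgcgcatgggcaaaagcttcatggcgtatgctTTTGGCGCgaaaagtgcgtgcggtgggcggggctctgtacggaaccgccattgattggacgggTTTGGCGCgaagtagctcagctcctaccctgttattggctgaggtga
Mcm7 chr5:138172001-138172088 (minus strand): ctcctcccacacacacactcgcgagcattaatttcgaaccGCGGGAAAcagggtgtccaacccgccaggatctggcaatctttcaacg

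The third motif is the core of the interferon-stimulated response element, TTTC followed by any 2 bases and TTTC, which is bound by a complex that holds IRF9 after interferon. Ifit1 and Ifit3, whose proteins bind viral RNA or its partners, carry 2 copies each and were called negative.

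Ifit1 chr19:34640745-34640853 (plus strand): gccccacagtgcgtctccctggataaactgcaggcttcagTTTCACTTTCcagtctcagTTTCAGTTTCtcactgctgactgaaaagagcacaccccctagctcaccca
Ifit3 chr19:34583333-34583456 (plus strand): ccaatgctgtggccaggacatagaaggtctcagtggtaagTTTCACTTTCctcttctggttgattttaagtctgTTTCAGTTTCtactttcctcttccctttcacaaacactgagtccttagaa

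In windows of 300 bases (250 before and 50 after the start), searched on both strands, TCACGTGA was present in 0.974% of the 32851 windows in the RefSeq table. It was present for 6 of the 28 lysosome and autophagy genes with a window (21.4%), in 6 of the 20 called positive and 0 of the 8 not called. The E2F motif was present in 1.56% of the windows and for 12 of 41 DNA replication genes (29.3%), in 9 of the 33 called negative (27.3%) and 3 of the 8 not called (37.5%). The interferon motif was present in 3.44% of the windows and for 23 of 40 interferon-stimulated genes (57.5%), in 16 of the 27 called negative (59.3%) and 7 of the 13 not called (53.8%). Of 43 mitosis genes with a window, TCACGTGA was present for 2, the E2F motif for 0 and the interferon motif for 3. The share over the table counts single windows, also those of genes that were not tested. The share of a list counts tested genes with the motif in any of their windows, so these shares are not like measures. A match describes the sequence and is not evidence that a factor was bound in these cells.

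The lysosome was the gene group with the largest share of positive calls among the lists with at least 10 genes tested. Of 35 lysosome and autophagy genes tested, 27 were called positive and 0 negative, against 7.58% and 11.0% of all genes. The median of the 35 was 0.37 on the log2 scale, against -0.02 over all genes. Gpnmb, a transmembrane glycoprotein of phagosomes and lysosomes, had the largest value of the 27. It stood at 3956, 3933 and 3891 CPM in the untreated libraries, at 3873, 4043 and 3992 at 1 µg for 6 h, and at 4351, 4212 and 4444 at 10 µg for 6 h. At 24 h it stood at 3990, 3768 and 3980 CPM at 1 µg and at 7830, 8335 and 9026 at 10 µg. The 10 µg, 24 h libraries stood alone, and the 1 µg libraries at 24 h spanned the untreated range. The dose difference was 2.15-fold at 24 h and 1.09-fold at 6 h, and the interaction was 0.97 ± 0.07 (SE, n = 3 libraries a group, edgeR adjusted p = 3.73e-09).

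Ctsd, the main aspartic protease of the lysosome, was at 2216, 2234 and 2171 CPM at 1 µg for 6 h and at 2191, 2156 and 2292 at 10 µg for 6 h. It was at 1933, 2186 and 2210 CPM at 1 µg for 24 h and at 3302, 3661 and 3893 at 10 µg for 24 h. Only the last group left the range of the untreated libraries (2259 to 2299 CPM) upwards, and the interaction was 0.77 ± 0.08 (edgeR adjusted p = 6.97e-07). Psap, the precursor of the saposins that help to break down sphingolipids, followed the same course, from 1027 to 1062 CPM over the 6 libraries at 6 h, through 878 to 1016 at 1 µg for 24 h, to 1413, 1627 and 1661 at 10 µg for 24 h (interaction 0.72 ± 0.08, edgeR adjusted p = 1.27e-06). The 27 members covered proteases (Ctsb 0.61, Ctsz 0.40, Ctss 0.37), glycosidases (Gla 0.58, Gaa 0.46), membrane proteins (Npc1 0.53, which exports cholesterol, and Lamp1 0.40), proton pump subunits (Atp6v1a 0.47, Atp6v0d1 0.44) and autophagy genes (Sqstm1 0.45, Map1lc3b 0.36, Ulk1 0.29). The 8 members that were not called were Ctsc, Glb1, Man2b1, Gabarapl1, Wipi1, Atg9a and the regulators Tfeb and Tfe3, with values from -0.14 to 0.24. The reads of Ctsd and of an overlapping predicted gene on the same strand may be split between them.

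Outside that list, Atp6v0d2, a subunit of the proton pump used in osteoclasts and macrophages, had one of the larger positive values. Its levels were 42.7, 46.6 and 41.0 CPM at 1 µg for 6 h and 52.0, 50.2 and 54.1 at 10 µg for 6 h. At 24 h they were 43.5, 42.0 and 49.0 CPM at 1 µg and 153, 168 and 158 at 10 µg. The dose difference was 0.26 at 6 h and 1.83 at 24 h on the log2 scale (3.56-fold), with an interaction of 1.57 ± 0.09 (edgeR adjusted p = 7.69e-12). Among 17 genes of iron and metal handling, 5 were called positive, against 7.58% of all genes, and 0 negative, among them Fth1 (ferritin heavy chain, 0.47), Slc30a1 (a zinc exporter, 0.44) and Ncoa4 (which takes ferritin to the lysosome, 0.30). Without replicate 1 of the 1 µg, 24 h group the 5 became 10.

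**Figure D2:**
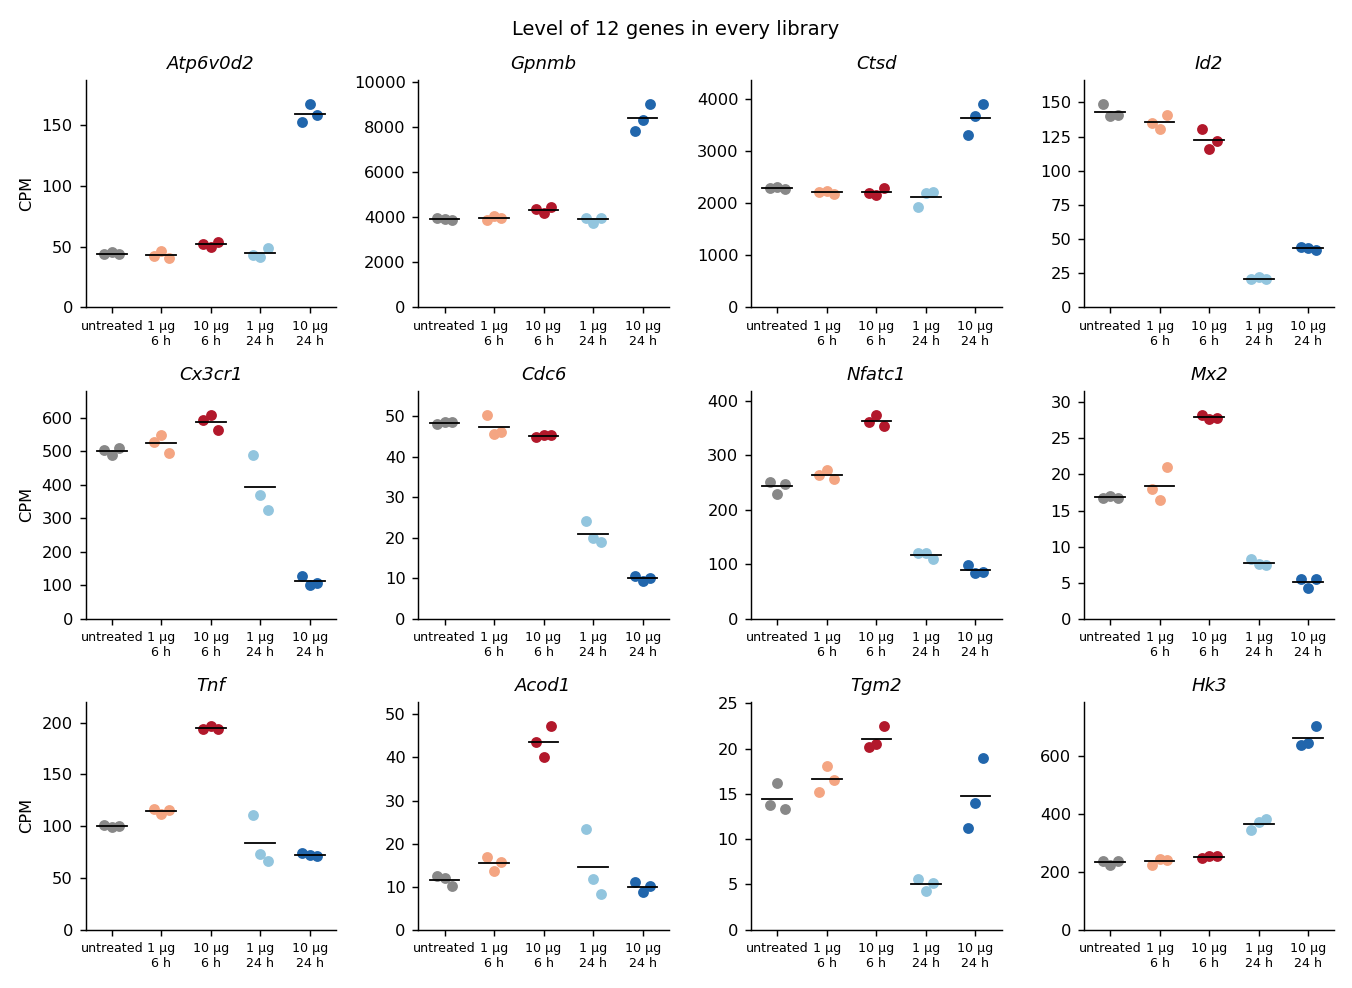
Level of 12 genes in CPM (y axis, from 0) in each of the 15 libraries, by group, with the group mean as a bar. Atp6v0d2, Gpnmb and Ctsd are high in the 10 µg, 24 h libraries only, Cx3cr1 and Cdc6 are lowest there, Tnf and Acod1 are highest at 10 µg for 6 h, and Id2 is low at 24 h but less so at 10 µg.

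The 2 cell cycle lists had the largest shares of negative calls. Of 50 DNA replication genes, 40 were called negative and 0 positive, with a median of -0.55. Of 51 mitosis genes, 40 were called negative and 0 positive, with a median of -0.37. Over all genes the interaction was called negative for 11.0% and positive for 7.58%, with a median of -0.02. Neither list held a member with a value above 0. At 1 µg, 49 of 50 and 49 of 51 were called lower at 24 h than at 6 h, against 30.5% of all genes, and at 10 µg 50 of 50 and 50 of 51, against 35.2%. The dose difference at 24 h was called downward for 46 of 50 and 49 of 51, against 19.3% of all genes. At 6 h it was called for 0 of the replication genes and downward for 2 of the 51 mitosis genes, against 0.492% of all genes.

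Cdc6 was at 50.2, 45.6 and 46.2 CPM at 1 µg for 6 h and at 44.8, 45.3 and 45.2 at 10 µg for 6 h. It was at 24.1, 19.8 and 18.9 CPM at 1 µg for 24 h and at 10.6, 9.33 and 10.1 at 10 µg for 24 h. The untreated libraries were at 48.1, 48.6 and 48.5 CPM, so both doses were lower at 24 h and the higher dose by more, with no overlap between the doses. The interaction was -0.99 ± 0.11 (edgeR adjusted p = 9.89e-07). Uhrf1, which carries DNA methylation through replication, had a value of -0.88 ± 0.09, and Tk1, the thymidine kinase of S phase, one of -0.86 ± 0.09 (edgeR adjusted p = 7.46e-07 for each). The value of Ccne2 (cyclin E2) was -1.81 ± 0.22, with 50.3 to 59.4 CPM over the 6 libraries at 6 h and levels of 27.4, 22.02 and 17.0 CPM at 1 µg and 7.76, 5.09 and 5.92 at 10 µg at 24 h (edgeR adjusted p = 9.3e-05). Exons of Ccne2 overlap those of Ints8 on the opposite strand, and whether the counting used strand is not given in the sources used here.

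Among mitotic genes, Aurkb, the kinase of the chromosomal passenger complex, was at 113, 110 and 115 CPM at 1 µg for 6 h and at 103, 101 and 100 at 10 µg for 6 h. It was at 73.0, 77.7 and 70.2 CPM at 1 µg for 24 h and at 49.4, 45.6 and 49.97 at 10 µg for 24 h, with an interaction of -0.45 ± 0.07 (edgeR adjusted p = 8.94e-05). Cenpa, the centromeric histone, had -0.49 ± 0.07 (edgeR adjusted p = 4.62e-05). In bulk RNA a smaller share of cycling cells and less of these transcripts per cell cannot be told apart. Of 42 ribosome biogenesis genes, which fall with growth rate, 17 were called negative and 0 positive (Nop56 -0.50, Dkc1 -0.47), against 11.0% of all genes negative, whereas of 75 cytosolic ribosomal protein genes 1 was called negative (Rpl37) and 0 positive. The call of Rpl37 was lost under 14 of 21 alternatives.

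**Figure D3:**
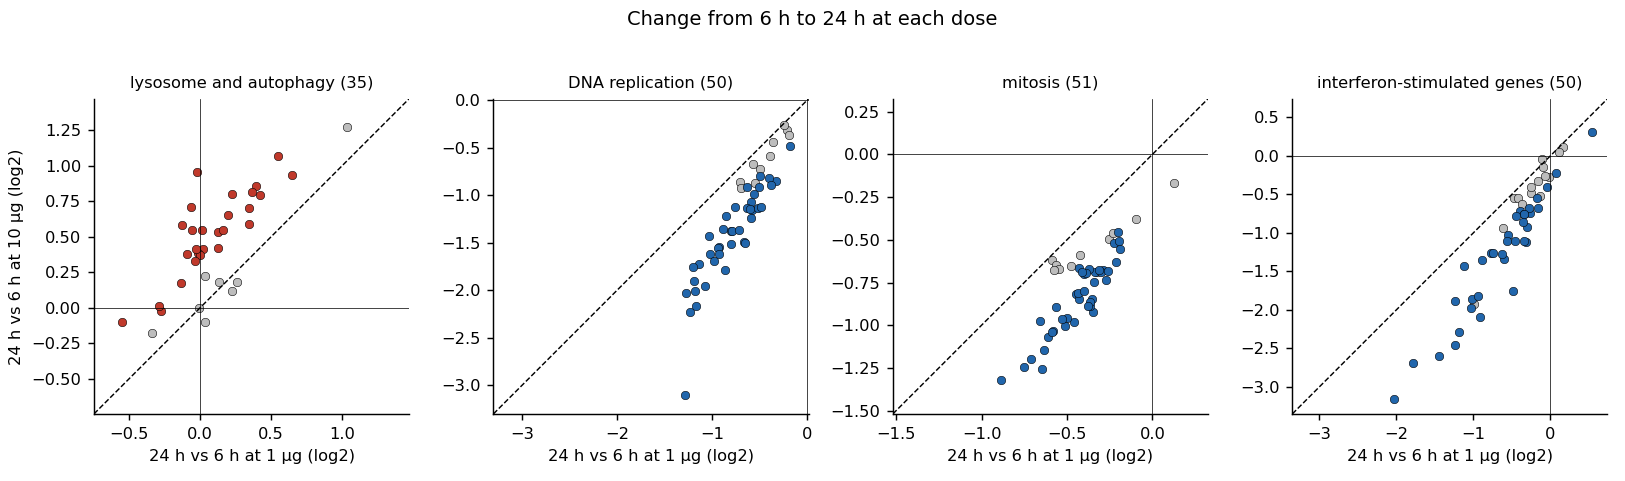
Change from 6 h to 24 h at 1 µg (x axis, log2) and at 10 µg (y axis, log2) for each tested member of 4 gene lists, red for a positive interaction, blue for a negative one and grey for not called. Of the 35 lysosomal genes 32 lie above the dashed line of equal changes. All genes of DNA replication and mitosis and all but 1 of the interferon list lie below it, most of them where both changes are negative.

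Interferon-stimulated genes were the third large negative group, with a different course. Of 50 tested, 35 were called negative and 0 positive, against 11.0% and 7.58% of all genes, with a median of -0.47. At 6 h the dose difference was called upward for 17 of the 50 and downward for 0, against 1.85% and 0.492% of all genes. At 24 h it was called upward for 3 and downward for 30, against 16.0% and 19.3%. Mx2, an interferon-induced GTPase that restricts viruses, shows the course: 17.9, 16.4 and 21.0 CPM at 1 µg for 6 h, 28.2, 27.8 and 27.9 at 10 µg for 6 h, 8.22, 7.64 and 7.49 at 1 µg for 24 h, and 5.51, 4.19 and 5.54 at 10 µg for 24 h. The 10 µg libraries were above all others at 6 h and below all others at 24 h, on either side of the untreated libraries at 16.7, 17.0 and 16.8 CPM. The dose difference was 1.52-fold higher at 6 h and 1.53-fold lower at 24 h, and the interaction was -1.22 ± 0.15 (edgeR adjusted p = 3.73e-06).

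Ifit3 (-1.16), Ifit1 (-0.91), Gbp2 (-1.28), Cmpk2 (-1.11) and Rsad2 (-0.65) had values of the same sign. So did Stat2 (-0.30) and Irf7 (-0.32), which carry the interferon signal, and the RNA sensors Ddx58 (-0.41), Ifih1 (-0.42) and Dhx58 (-0.62). Among the 15 not called were Irf1 (-0.04), Irf9 (-0.15), Usp18 (-0.09) and Bst2 (-0.16). Outside the list, Gbp8, a guanylate-binding protein gene, had a positive value of 1.67 ± 0.43 (edgeR adjusted p = 0.0097), from 0.562 to 1.16 CPM over the 6 libraries at 6 h to 5.48, 6.61 and 9.75 at 1 µg and 14.8, 24.6 and 19.96 CPM at 10 µg at 24 h. Its exons overlap those of Gbp4 and Gbp9 on the same strand and the family is closely related in sequence, so its value is uncertain.

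The 35 genes whose dose difference passed at both times in opposite directions held 29 that were higher at 10 µg at 6 h and lower at 24 h, and 6 with the reverse. The 29 included Mx2, Ifit3, Ifit1, Oasl2, Rtp4, Xaf1, Parp14 and Ifih1 of the interferon list. They also included Nfatc1, Egr1, Nlrp3 (a sensor of the inflammasome) and Gpr84 (a fatty acid receptor). The last 2, and Capn5 and Sirpa below, were chosen after their values were seen. Nfatc1, the transcription factor that directs osteoclast formation, was at 263, 273 and 256 CPM at 1 µg for 6 h and 361, 373 and 354 at 10 µg for 6 h. It was at 120, 120 and 109 CPM at 1 µg for 24 h and 97.8, 84.2 and 85.2 at 10 µg for 24 h, with dose differences of 0.46 ± 0.06 and -0.39 ± 0.06 on the log2 scale. Its interaction was -0.84 ± 0.08 (edgeR adjusted p = 1.99e-07), and the doses did not overlap at either time. Over all genes tested the doses did not overlap for 24.1% at 6 h and for 41.2% at 24 h. Egr1, an immediate early transcription factor, was at 42.0, 42.1 and 40.5 CPM at 1 µg for 6 h, at 57.5, 61.0 and 57.9 at 10 µg for 6 h, at 39.9, 35.1 and 25.5 at 1 µg for 24 h and at 22.9, 19.5 and 19.8 at 10 µg for 24 h (interaction -1.20 ± 0.17, edgeR adjusted p = 0.000208).

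Clec7a, the beta-glucan receptor Dectin-1, was among the 6 with the reverse course. It was at 39.5, 35.6 and 37.0 CPM at 1 µg for 6 h and 29.5, 28.4 and 28.9 at 10 µg for 6 h, then at 75.7, 79.7 and 80.5 at 1 µg for 24 h and 86.0, 99.8 and 92.9 at 10 µg for 24 h (interaction 0.61 ± 0.09, edgeR adjusted p = 2.45e-05). Capn5, a calpain protease (0.72), and Sirpa, the receptor for CD47 (0.42), were 2 others. The count of 35 fell to 10 to 16 when any 1 of the 6 libraries at 6 h was left out. It was 60 without replicate 1 and 68 without replicate 3 of the 1 µg, 24 h group.

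Acod1 and Tnf, had negative values with the dose difference called at 6 h and not at 24 h. Acod1, which makes itaconate, was at 17.0, 13.7 and 15.8 CPM at 1 µg for 6 h and 43.6, 40.2 and 47.2 at 10 µg for 6 h. At 24 h it was at 23.4, 11.7 and 8.37 CPM at 1 µg and 11.02, 8.88 and 10.1 at 10 µg, and the doses overlapped. The dose difference was 2.83-fold at 6 h, and the interaction was -2.04 ± 0.41 (edgeR adjusted p = 0.00598). Replicate 1 of the 1 µg, 24 h group was the highest of that group, and without it the interaction was -1.51 (edgeR adjusted p = 1.11e-06).

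Tnf, the cytokine, was at 117, 112 and 116 CPM at 1 µg for 6 h and 194, 196 and 194 at 10 µg for 6 h. It was at 111, 73.2 and 66.3 CPM at 1 µg for 24 h and 74.5, 72.1 and 71.0 at 10 µg for 24 h. Again the doses were apart at 6 h and overlapped at 24 h, with an interaction of -0.97 ± 0.20 (edgeR adjusted p = 0.00644) and of -0.71 without the same library. The chemokine gene Cxcl10, an interferon target, was called with -1.24 ± 0.22 (edgeR adjusted p = 0.000248). It was at 13.2, 14.5 and 15.6 CPM at 1 µg and 17.3, 18.4 and 17.7 at 10 µg at 6 h, and at 4.24, 2.59 and 2.86 at 1 µg and 1.68, 2.02 and 1.36 at 10 µg at 24 h. The doses did not overlap at either time, but its dose difference was called at 24 h only (-0.94, against 0.30 at 6 h). Its exons overlap those of Art3 on the opposite strand. The value of Ptgs2, which makes prostaglandins, was -1.28 ± 0.60 and was not called (edgeR adjusted p = 0.184). It was called without replicate 3 of the 1 µg, 24 h group (edgeR adjusted p = 0.0465), and its value was -0.36 without replicate 1. Il1rn (-0.30 ± 0.23) and Mrc1 (-0.21 ± 0.42) were not called, and Nos2, at no more than 0.807 CPM in any library, could not be resolved at this depth (0.20 ± 4.25). Arg1 (-1.71 ± 0.51, edgeR adjusted p = 0.0199) was at most 2.04 CPM in any library and lost its call without replicate 1 at 1 µg for 6 h, replicate 2 at 10 µg for 6 h or replicate 3 at 10 µg for 24 h, with values of -1.44, -1.52 and -1.44.

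Of 25 NF-kB feedback and target genes, 10 were called negative and 0 positive, against 11.0% and 7.58% of all genes, with a median of -0.16. At 6 h, 11 of the 25 were called higher at 10 µg and 0 lower, against 1.85% and 0.492% of all genes. At 24 h, 9 were called higher and 2 lower, against 16.0% and 19.3%. The 10 genes with a negative interaction included the inhibitors Nfkbia (-0.32), Nfkbie (-0.33) and Nfkbiz (-0.54), the RNase Zc3h12a (-0.47) and the adhesion molecule Icam1 (-0.34). Tnfaip3 (-0.07), Nfkb1 (-0.16) and Nfkb2 (0.10) were among those not called. Nfkbiz was at 17.2, 16.0 and 18.0 CPM at 1 µg for 6 h and 27.4, 23.9 and 27.9 at 10 µg for 6 h. It was at 27.7, 24.1 and 24.3 CPM at 1 µg for 24 h and 28.8, 26.2 and 26.2 at 10 µg for 24 h. The 1 µg libraries had come up to the 10 µg level by 24 h, which is another way to a negative value. Of 9 chemokine genes 3 were called negative and 0 positive. Of 12 cytokine and growth factor genes 2 were negative (16.7%) and 0 positive, near the share over all genes. The 3 chemokine genes became 5 without replicate 3 of the 1 µg, 24 h group.

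Immediate early genes divided. Of 30, 9 were called negative and 5 positive, against 11.0% and 7.58% of all genes. The negative ones included Fos (-0.92 ± 0.10), Fosb (-1.25), Egr1, Egr3 (-0.64) and Zfp36, which destabilises cytokine transcripts (-0.40). The positive ones were Atf3 (0.54 ± 0.08), Jun (0.44), Klf6 (0.21), Dusp4 (0.44) and Rgs1 (0.39). Fos was at 140, 140 and 141 CPM at 1 µg and 147, 146 and 146 at 10 µg at 6 h, and at 82.8, 69.6 and 60.7 at 1 µg and 37.6, 39.7 and 39.8 at 10 µg at 24 h. Atf3 was at 109, 112 and 101 CPM at 1 µg and 129, 131 and 126 at 10 µg at 6 h, and at 179, 161 and 175 at 1 µg and 283, 300 and 311 at 10 µg at 24 h. The 9 negative calls became 14 without replicate 3 of the 1 µg, 24 h group.

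Osteoclast differentiation genes also divided. Of 19 tested, 5 were positive and 7 negative, against 7.58% and 11.0% of all genes. The 5 were Atp6v0d2, Ctsk (0.43), Clcn7 (0.46), Ostm1 (0.40) and Tcirg1 (0.32), which code for the collagen-degrading protease, the chloride channel and its partner, and 2 subunits of the proton pump. The 7 were Nfatc1, Fos and Mitf (-0.50), which are transcription factors, the receptors Csf1r (-0.69) and Tnfrsf11a (RANK, -0.42), Car2 (carbonic anhydrase II, -0.60) and Ocstamp, a membrane protein needed for cell fusion. Ctsk was at 2286, 2281 and 2333 CPM at 1 µg and 2585, 2514 and 2585 at 10 µg at 6 h, and at 1911, 1951 and 2061 at 1 µg and 2717, 3118 and 3064 at 10 µg at 24 h. Ocstamp was at 5.07, 5.70 and 5.13 CPM at 1 µg and 4.63, 4.95 and 4.92 at 10 µg at 6 h, and at 2.61, 2.38 and 2.02 at 1 µg and 0.623, 0.252 and 0.194 at 10 µg at 24 h. Its interaction was -2.55 ± 0.35 (edgeR adjusted p = 1.57e-05). Dcstamp (-0.14), Acp5 (0.34) and Mmp9 (0.28) were not called.

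Among 17 homeostatic macrophage genes 4 were positive and 5 negative, against 7.58% and 11.0% of all genes. Cx3cr1, the fractalkine receptor, had one of the largest negative values. It was at 528, 549 and 496 CPM at 1 µg for 6 h and 593, 607 and 565 at 10 µg for 6 h. It was at 489, 368 and 325 CPM at 1 µg for 24 h and 128, 101 and 107 at 10 µg for 24 h. The dose difference was 3.52-fold lower at 24 h, and the interaction was -1.98 ± 0.18 (edgeR adjusted p = 3e-05) and -1.80 without replicate 1 of the 1 µg, 24 h group. The value of Itgam, the integrin CD11b, was -0.41 ± 0.07, with 203, 198 and 197 CPM at 1 µg and 194, 215 and 193 at 10 µg for 6 h, then 350, 328 and 354 at 1 µg for 24 h and 265.4, 259.5 and 258 at 10 µg for 24 h. Cd68, a lysosomal glycoprotein (0.43), Trem2 (0.32), Gas6 (0.51) and the Fc receptor gene Fcgr1 (0.69) were the 4 positive ones. Of 23 phagocytic and scavenger receptor genes 5 were positive, namely Clec7a, Fcgr1, Fcgr3 (0.46), Fcgr4 (0.75) and Cd300a (0.22), and 3 were negative. The 5 became 3 without replicate 1 of the 1 µg, 6 h group.

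Id2, an inhibitor of basic helix-loop-helix factors, had the smallest adjusted p of the TGF-beta and BMP feedback list and the opposite sign to Id1 (-0.74) and Id3 (-0.59). It was at 135, 130 and 140 CPM at 1 µg and 130, 116 and 122 at 10 µg at 6 h. It was at 20.5, 21.98 and 20.5 CPM at 1 µg and 44.0, 43.6 and 42.2 at 10 µg at 24 h. Both doses were below the untreated libraries (149, 140 and 141 CPM) at 24 h, the lower dose by more, and the interaction was 1.19 ± 0.08 (edgeR adjusted p = 1.96e-10). Of the 16 genes of that list 3 were positive and 5 negative, against 7.58% and 11.0% of all genes. The 5 became 1 to 3 without any 1 of 8 libraries, which were replicates 1 and 3 at 1 µg for 6 h, replicates 1 and 2 at 10 µg for 6 h, replicate 1 at 1 µg for 24 h and all 3 at 10 µg for 24 h. The count was lowest without replicate 3 of the last group.

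Tgm2, a transglutaminase used as a marker of alternative activation, was, like Id2, lower at 24 h than at 6 h in every library, and by more at 1 µg. It was at 15.3, 18.1 and 16.6 CPM at 1 µg and 20.2, 20.5 and 22.4 at 10 µg at 6 h, and at 5.61, 4.32 and 5.12 at 1 µg and 11.3, 14.0 and 18.9 at 10 µg at 24 h (interaction 1.21 ± 0.21, edgeR adjusted p = 0.000456). Of 11 markers of alternative activation 2 were positive (Clec7a and Tgm2) and 1 negative (Arg1). Of 9 markers of classical activation 2 were negative (Acod1 and Tnf) and 0 positive. With 7.58% of all genes positive and 11.0% negative, counts this small are no result about either list.

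**Figure D4:**
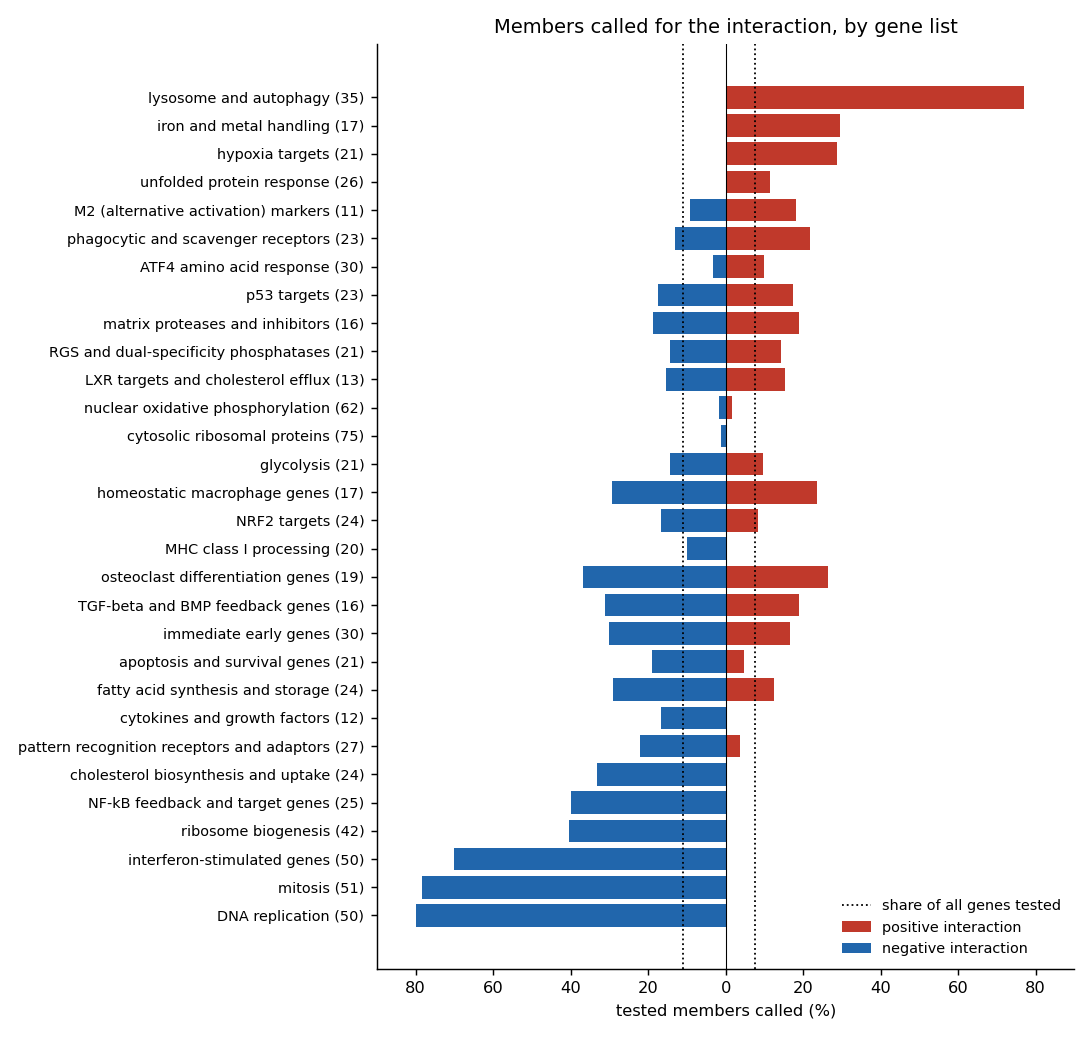
Share of the tested members of each gene list that were called positive (red, to the right) or negative (blue, to the left), in percent, for lists with at least 10 genes tested, with the number tested in brackets. Dotted lines mark the shares over all genes, 7.58% and 11.0%. The bars of DNA replication, mitosis and interferon-stimulated genes reach far to the left and that of lysosome and autophagy far to the right.

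**Figure D5:**
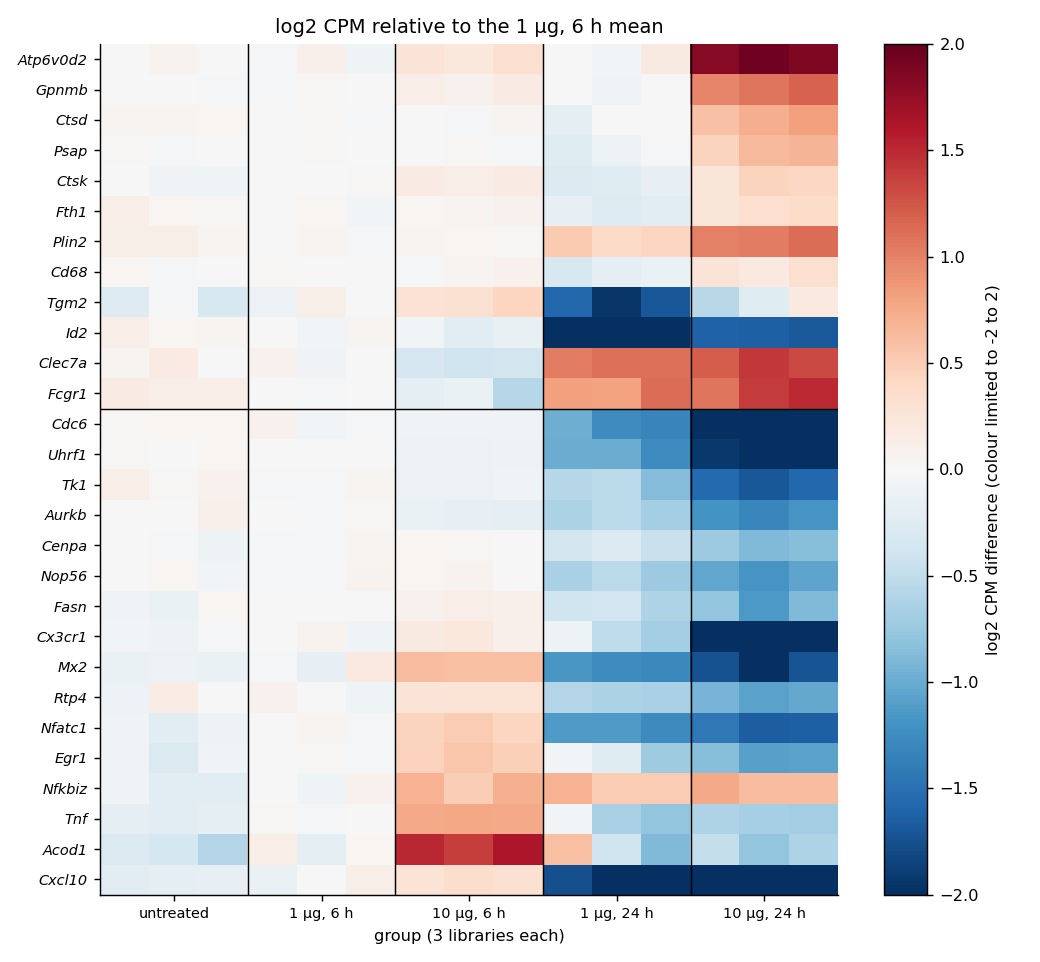
log2 CPM of 28 genes relative to the mean of the 1 µg, 6 h libraries, 1 column per library, with genes of positive interaction above the line and of negative interaction below. Colours are limited to -2 to 2. The untreated and 1 µg, 6 h libraries are alike for most of these genes, the 1 µg, 24 h libraries are intermediate for many, and Mx2, Nfatc1 and Egr1 are red at 10 µg for 6 h and blue at 10 µg for 24 h.

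Fatty acid genes had values of both signs. The cholesterol synthesis and uptake list held no value above 0 and had a median of -0.21. Over all genes, 7.58% were called positive and 11.0% negative. Of 24 fatty acid genes 7 were negative, among them the synthetic enzymes Fasn (-0.58 ± 0.10), Elovl6 (-0.57 ± 0.11), Acaca (-0.33) and Acly (-0.26), and 3 were positive, the lipid droplet coats Plin2 (0.55 ± 0.07) and Plin3 (0.42) and the lipid carrier Fabp5 (0.42). Plin2 was at 158, 164 and 154 CPM at 1 µg and 165, 164 and 162 at 10 µg at 6 h, and at 229, 208 and 214 at 1 µg and 319, 322 and 344 at 10 µg at 24 h. Of 24 cholesterol synthesis and uptake genes 8 were negative and 0 positive (Idi1 -0.46, Stard4 -0.43), while Srebf2 (-0.03) was among those not called. The 8 became 14 without replicate 3 of the 1 µg, 24 h group.

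Of 21 glycolysis genes 2 were positive (9.52%) and 3 negative (14.3%), near the 7.58% and 11.0% of all genes. The 3 became 1 without replicate 2 of the 1 µg, 6 h or replicate 3 of the 10 µg, 6 h group, and 5 without replicate 3 of the 1 µg, 24 h group. Hk3, a hexokinase of myeloid cells, was positive (0.76 ± 0.07, edgeR adjusted p = 1.99e-07) and Pkm, the pyruvate kinase, negative (-0.34 ± 0.07, edgeR adjusted p = 0.00115). Hk3 was at 222, 243 and 242 CPM at 1 µg and 248, 255 and 253 at 10 µg at 6 h, and at 344, 370 and 383 at 1 µg and 638, 645 and 701 at 10 µg at 24 h. Of 21 hypoxia targets 6 were positive and 0 negative, with a list median of -0.04, among them Plin2, Hilpda (0.63), Ero1a (0.30) and Ndrg1 (0.84). The 6 became 3 without replicate 2 of either the 1 µg, 6 h or the 10 µg, 24 h group.

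The genes with the largest values were mostly expressed at a low level. Among named genes with a mean of at least 5 CPM in 1 treated group, Tspan10, a tetraspanin, had the largest positive value (2.59 ± 0.44, edgeR adjusted p = 0.000196). It was at 0.427, 0.750 and 0.793 CPM at 1 µg and 0.603, 0.766 and 0.483 at 10 µg at 6 h, and at 2.61, 1.86 and 2.61 at 1 µg and 10.0, 12.6 and 17.3 at 10 µg at 24 h. Gorasp1, a Golgi stacking protein (2.15 ± 0.59, edgeR adjusted p = 0.0288), lost its call under 6 of 21 alternatives, and its exons overlap those of Wdr48. Dio2, the deiodinase that activates thyroid hormone, was at 0.600 to 1.58 CPM over the 6 libraries at 6 h, and at 2.03, 0.691 and 1.18 CPM at 1 µg and 8.91, 10.7 and 12.1 at 10 µg at 24 h (2.12 ± 0.45, edgeR adjusted p = 0.00174). Hpse, the heparanase, was at 7.02, 5.57 and 7.09 CPM at 1 µg and 19.2, 22.04 and 23.8 at 10 µg at 24 h, after 1.97 to 2.71 CPM in the 6 libraries at 6 h (1.52 ± 0.21, edgeR adjusted p = 2.17e-05). The remaining genes of the 12 largest were Creg2, Sdk2, Ccdc180, Mmp28, Cfap45 and H2ac18, with values from 1.36 to 1.66.

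On the negative side Itsn1, an endocytic scaffold protein, had the largest value (-4.69 ± 0.87, edgeR adjusted p = 0.00359). It was at 18.6, 17.5 and 18.8 CPM at 1 µg and 4.73, 11.3 and 15.3 at 10 µg at 6 h, and at 10.0, 7.34 and 7.78 at 1 µg and 0.0958, 0.454 and 0 at 10 µg at 24 h. A count of 0 allows a level of up to 3 counts, 0.144 to 0.151 CPM in the last 3 libraries. One of them was above that limit and the others below it, so the data do not fix the size of this value. In CPM, the 10 µg mean of Itsn1 was below the 1 µg mean by a similar amount at both times. Trib1, a pseudokinase scaffold for protein degradation, was at 28.5, 28.7 and 27.6 CPM at 1 µg and 30.2, 28.1 and 29.1 at 10 µg at 6 h, and at 17.0, 12.7 and 9.46 at 1 µg and 4.36, 3.13 and 3.69 at 10 µg at 24 h (-1.85 ± 0.21, edgeR adjusted p = 1.58e-05). Hspa1b, an inducible heat shock protein gene (-2.10 ± 0.35, edgeR adjusted p = 0.00051), shares long stretches with its near-identical copy, so its reads are uncertain. Ighm, the immunoglobulin heavy chain gene, was negative in another way, rising from 0.854, 1.501 and 1.11 CPM to 9.19, 12.52 and 12.3 at 1 µg and from 1.62, 1.33 and 1.25 to 3.69, 3.48 and 3.88 at 10 µg (-1.89 ± 0.31, edgeR adjusted p = 0.000144). Of the B cell markers, Cd79b and Ms4a1 were at 0 in every library, Cd79a (-0.24) and Fcrla (0.22) were tested and not called, and Blnk, an adaptor of B cell receptor signalling that macrophages also make, was called positive (0.50 ± 0.14). Blnk lost that call without replicate 3 at 1 µg for 6 h (0.40), replicate 1 at 10 µg for 6 h (0.43) or replicate 2 at 1 µg for 24 h (0.40). The sizes of Ranbp3l and Slc5a3 depend on replicate 1 of the 1 µg, 24 h group. Slc5a3, an inositol transporter, was at 112, 40.1 and 34.3 CPM at 1 µg for 24 h, and without the first of these its value was -1.31 in place of -2.05. For Ranbp3l it was -1.73 in place of -2.85, and both stayed called without that library. Ranbp3l lost its call under 10 and Slc5a3 under 7 of 21 alternatives, those that left out other libraries or fitted the treated groups alone. Olfml3 (-1.80 ± 0.29) was also among the 12.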

How the data were processed

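RNA was measured in 15 libraries of RAW264.7 cells, 5 groups of 3. RNA was extracted with TRIzol and RNeasy and libraries were made with a stranded mRNA kit, per the labels' protocols. The authors deposited raw read counts per gene symbol, and the submitters' processing notes name the GRCm39 build. The aligner, the counter, the annotation and the strand setting were not given in the sources used here. Of 25639 symbols, 8141 had no count, and 12401 passed edgeR's default filter by group. All 15 libraries were fitted with edgeR 4.0.16 in R 4.3.3 (TMM scaling, robust quasi-likelihood, 10 residual degrees of freedom, no covariate), with p-values adjusted by Benjamini-Hochberg over the 12401 genes. Genes under an adjusted p of 0.05 were called. The SE is the size of the log2 value divided by the square root of F. CPM values use the TMM-scaled library sizes, except the sums over lists of cell type markers, which use the unscaled library totals. The fit was run on simulated counts with known changes. Those counts had the same spread in every group, so they do not cover the unequal spread between the groups seen here. DESeq2 1.42.0 and limma 3.58.1 (voom), other scalings and filters, a replicate block, the 4 treated groups alone and each treated library left out in turn were alternatives.

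Genes named by rule were the 12 called genes with the largest value in each direction among those with at least 5 CPM in their highest treated group and a symbol that is no predicted, Riken or clone name, 8 core activation genes, and up to 3 called members of each of 39 gene lists with the smallest p. Other members given with a value were picked as examples after their values were seen. The members, the lists and the named genes were chosen with earlier results of these data known, and 51 genes stand in more than 1 list. Exon overlaps are from GENCODE on GRCm38 and promoters from RefSeq on GRCm38.p6, so no coordinate is from the authors' build. Intervals, errors and the limit of 3 counts for a count of 0 cover counting error and the spread between libraries only. A few members of the lists and of the named genes are not reported here.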

Additional observations from a re-analysis of the deposited data

Results flagged for a closer look

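The dose difference at 24 h differed from that at 6 h for 2307 genes by the interaction test itself (edgeR's quasi-likelihood test, adjusted p under 0.05). Among the genes named by rule, 5 were called at both times in opposite directions, with the difference between the times tested by the same term. The interaction was -1.215 for Mx2, -1.197 for Egr1, -0.8429 for Nfatc1 and -0.6474 for Rtp4, which were higher at 10 µg than at 1 µg at 6 h and lower at 24 h. It was 0.6092 for Clec7a, which was lower at 6 h and higher at 24 h.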

How the results depend on the processing

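The interaction was called for 2113 to 2361 genes under the 9 alternatives that kept every treated library, and for 1764 to 2723 when 1 library was left out, the lowest without replicate 2 of the 10 µg, 24 h group and the highest without replicate 3 of the 1 µg, 24 h group. No gene called in the main result changed sign in any alternative. Replicate numbers did not pair the samples: deviations of same-numbered libraries correlated from -0.15 to 0.20 over 30 pairs, with 3 over 0.1. With the replicate block 2252 genes were called, and of the named genes Psmb8 and Rpl37 lost their calls. The count for the dose difference at 6 h (291) ranged from 111 to 592 without 1 library, and the count of genes with opposite dose differences (35) from 10 to 68. The cause was not tested. Of the 106 named genes that were called, 96 passed in all 21 alternatives. Genes near 1 CPM, such as Arg1 and Nos2, are limited by depth.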
